A study of Homo sapiens with 6 samples.

Results

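The regions examined here were continuous stretches of H3K4me2 in vehicle-treated LNCaP cells. Each was overlapped by several separate records of the peak list made after 24 h of GSK2879552, which could also reach beyond it. A vehicle region on chromosomes 1 to 22 was chosen by position alone, when at least 2 separate GSK 24 h records each overlapped it by 1 bp or more. Of the 97240 vehicle regions on these chromosomes, 6087 met this rule and are called split regions; with records limited to a -log10 q of 10 or more, 2573 did. A further 77635 overlapped exactly 1 GSK 24 h record and are called unsplit regions, and 13518 overlapped none. Since the vehicle and GSK 24 h positions chose the members, everything these positions show of them is given as a description with no test.

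LNCaP is an androgen-responsive human prostate cancer cell line. Before treatment it was grown for 3 days in 5% charcoal-stripped serum, from which most androgen has been removed, and H3K4me2 was then mapped by ChIP-seq in 3 groups of 2 replicates: vehicle, GSK2879552 for 4 h (GSK 4 h) and GSK2879552 for 24 h (GSK 24 h). The sample labels of both GSK groups also name the androgen DHT, while the control is labelled as vehicle without GSK and the protocol text mentions no androgen. Effects of androgen and of the inhibitor therefore cannot be told apart in any difference from vehicle. Both replicates of a group were pooled by the authors into 1 deposited peak list, and the labels do not say whether the replicates were separate cultures. No replicate spread stands behind any value below, no test between groups could be had, and each difference is a difference between lists.

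H3K4me2, dimethylated lysine 4 of histone H3, is carried by nucleosomes at promoters and enhancers. LSD1 (KDM1A), the enzyme that GSK2879552 inhibits, removes methyl groups from this lysine. The mark often lies on the nucleosomes at either side of an active regulatory element, so that a peak caller can report the same place as 1 broad record or as several records with a dip between them. Which of these it reports also depends on the height of the signal in the dip, on the depth and on the calling threshold.

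The depth inferred from the peak values was 9.43 tags per kb of effective genome for vehicle, 10.1 for GSK 4 h and 8.98 for GSK 24 h. This takes the shortest record of each list as its fragment length, which was not measured here. Heights below are the number of fragments covering a summit divided by that list's genome-wide background, which was 2.08, 1.88 and 1.97 fragments. The highest summits lay at 1.96, 1.96 and 1.97 times the length of the shortest record of their list (221, 186 and 219 bp), so that very strong summits may be compressed. If the fragments of the GSK 4 h list were shorter, as its shortest record was, its heights are less comparable with those of the other lists. In every list the smallest distance between neighbouring records was 52 bp, so that a narrower dip was never reported as a split.

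By their medians, split regions were wide and strong in the vehicle list, but 2164 of the 6087 had a vehicle height under 16. Their width ran from 221 to 3125 bp with a median of 1213 bp, against a median of 500 bp for unsplit regions. Their vehicle height ran from 4.32 to 199.6 with a median of 32.6 (interquartile range 11.5 to 89.7), against a median of 11.5 for unsplit regions. The number of fragments at the vehicle summit ran from 9 to 416 with a median of 68, and the fold enrichment over local background from 2.05 to 20.2 with a median of 6.66. The median -log10 q was 30.6 (range 2.05 to 298), against 9.64 for unsplit regions. The local background that the caller set against the summit had a median of 4.63 times the genome-wide level at split and 1.61 at unsplit regions, but was closer at like heights, at 11.2 against 9.97 where the vehicle height was 64 or more and at 1.304 against 1.145 where it was under 16. A neighbouring vehicle region lay within 5 kb of 37.5% of split and 52.9% of unsplit regions, but the shares were closer at like widths, at 40.97% and 41.04% from 1000 to under 1500 bp and at 20.9% and 28.4% from 1500 to under 2000 bp. Another split region lay within 5 kb of 143 split regions (2.35%).

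At 24 h, 5827 of the split regions held 2 records, 252 held 3 and 8 held 4. Neighbouring records left a median of 154 bp between them (interquartile range 88 to 272). The median gap was 329 bp when records within 200 bp were merged first. Neighbouring 24 h summits were a median of 737 bp apart (514 to 1055). The 24 h records covered a median of 80.4% of the vehicle region, so that the break removed a small part of its length. At 3664 split regions (60.2%) the 24 h records also reached past both ends of the vehicle region, and the median span from the first to the last 24 h record was 223 bp longer than the vehicle region. At 310 regions (5.09%) every 24 h record lay wholly inside the vehicle region. The lower of the 24 h summits reached a median of 0.739 times the height of the taller one.

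The 5 strongest vehicle regions with exactly 2 records at 24 h, the vehicle summit in neither and a 24 h summit on each side were followed first. They are not typical of split regions. A vehicle summit outside every 24 h record with 24 h summits on both sides was found at 1207 of the 6087 (19.8%). All positions are in hg19. The first lay on chromosome 7 from 22395936 to 22397306, with a vehicle height of 165.5 (345 fragments) and a -log10 q of 244. At 4 h it was covered by records from 22395662 to 22396751 (height 55.8) and from 22396843 to 22397407 (height 52.6), with 91 bp between them. At 24 h the records ran from 22395842 to 22396490 (height 31.0) and from 22396825 to 22397520 (height 37.6), with 334 bp between them. The 24 h summits lay 267 bp to the left and 580 bp to the right of the vehicle summit. At this place the gap already existed at 4 h, but the vehicle summit still lay inside a 4 h record.

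The next region lay on chromosome 3 from 72495372 to 72496893 and had a vehicle height of 143. At 4 h it held 2 records with heights of 39.3 and 51.5 and a gap of 221 bp. At 24 h their heights were 33.6 and 14.2 and the gap was 436 bp. The gaps of both times overlapped, and that of 24 h was the wider.

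The remaining 3 regions of this kind were each still a single record at 4 h. On chromosome 4, the region from 329981 to 331221 had a vehicle height of 165.5. Its 4 h record ran from 329789 to 331241 with a height of 64.8 and a summit 22 bp from the vehicle summit, and at 24 h records with heights of 22.4 and 32.05 left a gap of 216 bp. On chromosome 2, the region from 238767514 to 238768842 had a vehicle height of 164.6, a 4 h height of 56.85 and 24 h heights of 42.7 and 37.6 with a gap of 140 bp. On chromosome 3, the region from 107243569 to 107244949 had a vehicle height of 151.6, a 4 h height of 47.8 and 24 h heights of 27.5 and 42.2 with a gap of 99 bp. In all 5 regions the vehicle summit was higher than any 4 h summit, and every 4 h region had at least 1 summit higher than both of its 24 h summits. The choice by vehicle -log10 p and by a vehicle summit outside the 24 h records favours such an order, so it is a description only. Of these 5, only the region on chromosome 7 was split under each of the 6 alternative settings tried. The others kept 1 record at 24 h with a -log10 q of at least 10 (chromosome 4 and both chromosome 3 regions) or with 50% of a record required inside the region or records within 200 bp merged (chromosome 2 and the second chromosome 3 region).

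**Figure D1:**
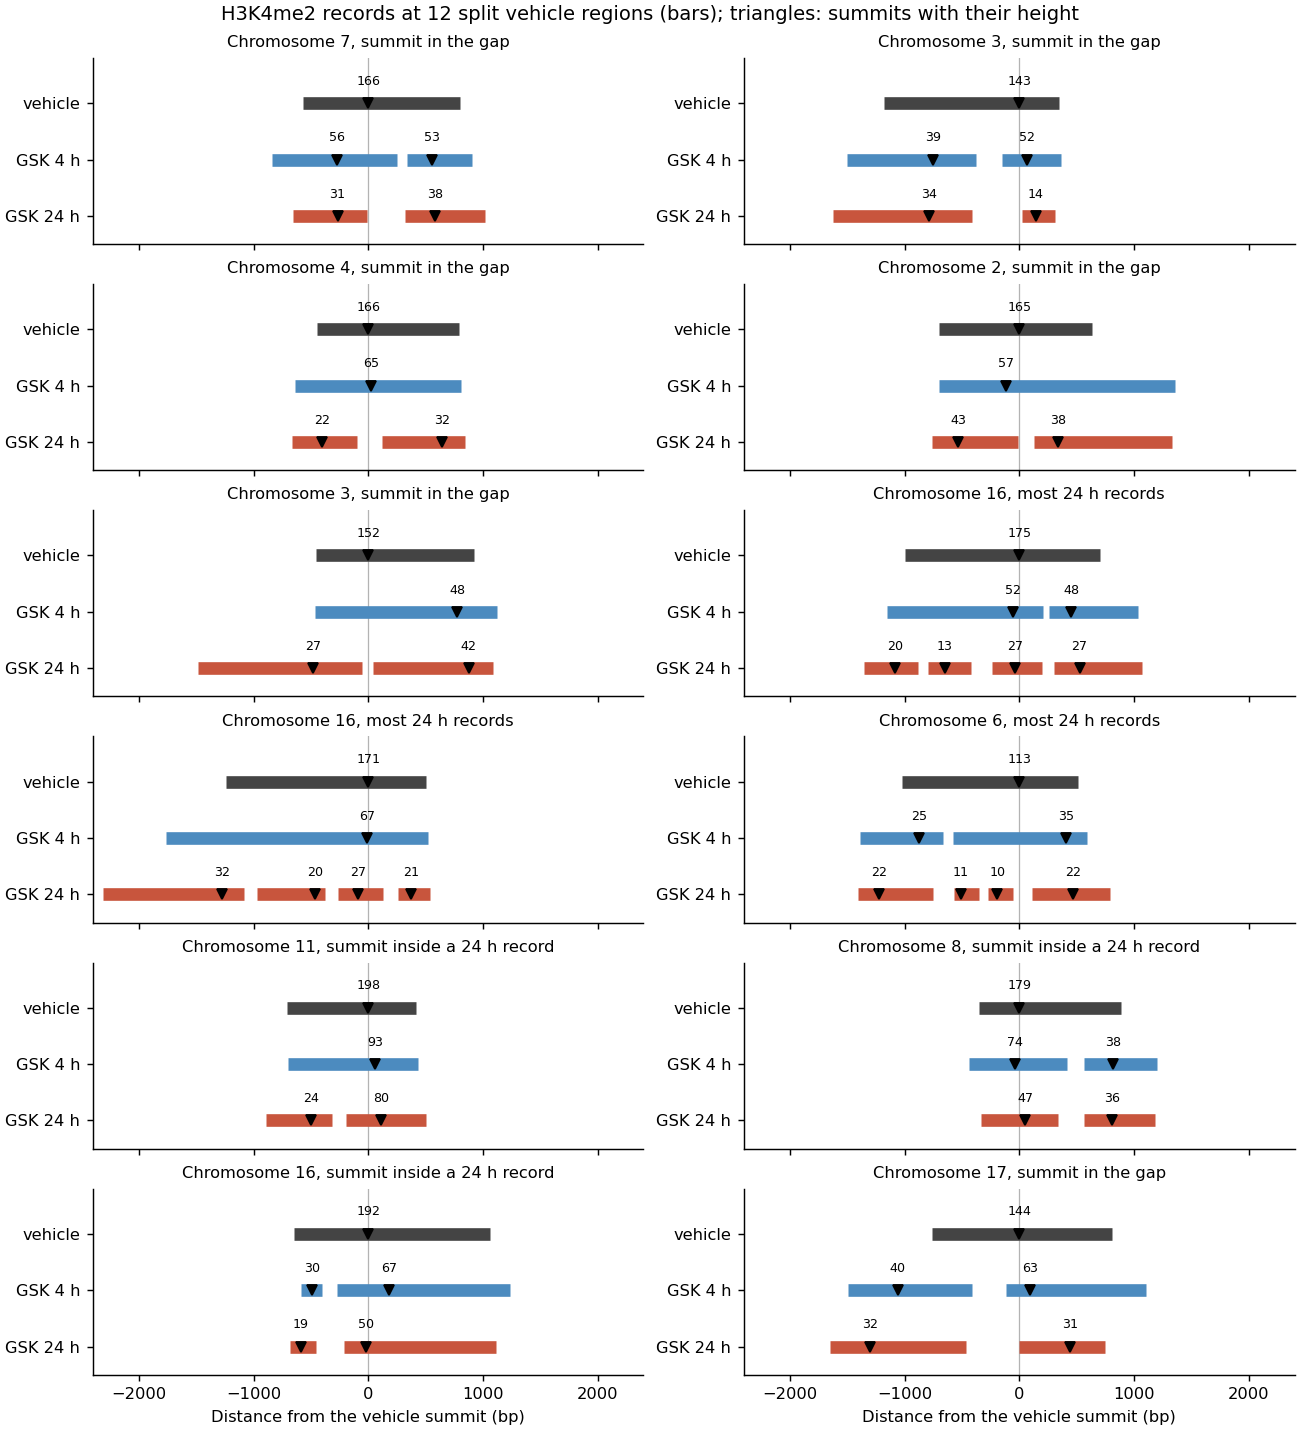
Records of the 3 lists at 12 split regions, drawn to scale, with distance from the vehicle summit in bp on the horizontal axis. Bars are records, triangles are their summits and the numbers are summit heights as multiples of the genome-wide background. The vehicle summit is the highest in each of the 12 panels, which the choice of regions by the strength of the vehicle record favours.

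Among split regions that held 2 records at 4 h, the third strongest with a vehicle summit in the 24 h gap lay on chromosome 17 from 61523091 to 61524663. Its vehicle height was 144, its 4 h heights were 40.4 and 62.7 with a gap of 297 bp, and its 24 h heights were 32.05 and 30.5 with a gap of 461 bp. As on chromosome 7, the vehicle summit lay inside a 4 h record and outside both 24 h records. The margin was narrow at both places. On chromosome 17 a 24 h record started 1 bp to the right of the vehicle summit, and on chromosome 7 one ended 12 bp to its left.

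The most 24 h records at a region were 4, which 8 regions held, and the 3 of these with the highest vehicle -log10 p are given. On chromosome 16, the region from 47176720 to 47178425 had a vehicle height of 174.7 and 24 h heights of 20.3, 12.7, 27.5 and 27.5 from left to right. At 4 h it held 2 records with heights of 52.1 and 47.8. A second region on chromosome 16, from 88850600 to 88852345, had a vehicle height of 170.8, a single 4 h record with a height of 67.5 and 24 h heights of 32.05, 19.8, 27.0 and 20.9. On chromosome 6, the region from 11537378 to 11538911 had a vehicle height of 112.8, 4 h heights of 24.97 and 34.5, and 24 h heights of 21.9, 11.2, 9.66 and 22.4. The gaps between the 24 h records of these 3 regions were 78 to 179 bp wide, and each region became 1 record when records within 200 bp were merged.

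The 3 strongest split regions whose vehicle summit stayed inside a 24 h record were also followed. On chromosome 11, the region from 120381898 to 120383020 had a vehicle height of 198 and a single 4 h record with a height of 93.0. At 24 h it held a low record (height 23.9, summit 496 bp to the left) and a tall one (height 79.9, summit 112 bp to the right). On chromosome 16, the region from 88869718 to 88871428 had a vehicle height of 192 and 4 h heights of 30.3 and 66.95. Its 24 h heights were 18.8 and 49.85, and the taller summit lay 18 bp from the vehicle summit. In the remaining region, on chromosome 8, a vehicle height of 179 stood against 4 h heights of 74.4 and 37.7 and 24 h heights of 46.8 and 35.6. In these 3 regions the split set off a lower record at 1 side, and the taller 24 h summit lay within 112 bp of the vehicle summit.

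To describe where the 24 h summits lay, the members were grouped by vehicle height into those under 16 (2164 regions), from 16 to under 64 (1803) and of 64 or more (2120). Over all split regions, 24 h summits lay on both sides of the vehicle summit at 4742 (77.9%, 95% Wilson interval 76.8 to 78.9). The share was 72.6% (70.6 to 74.4) in the lowest class, 73.0% (70.9 to 75.04) in the middle class and 87.5% (86.0 to 88.8) in the tallest. The vehicle summit lay outside every 24 h record at 1256 regions (20.6%, 19.6 to 21.7), with shares of 16.04%, 21.4% and 24.7% from the lowest class to the tallest. At most split regions, therefore, the former summit was still covered at 24 h and the break lay beside it. These intervals cover counting error only.

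How near a 24 h summit stayed to the vehicle summit differed between the height classes. The classes also differed in width, with median vehicle widths of 705, 1376 and 1554 bp from the lowest to the tallest. The nearest 24 h summit was a median of 89.5 bp away in the lowest class, 107 bp in the middle class and 265 bp in the tallest. A 24 h summit lay within 50 bp of the vehicle summit at 31.1%, 33.3% and 8.68% of the regions. A 24 h summit at the former place was thus found less often in the tallest class than in the others. For each side, the nearest 24 h summit was taken over all regions that had one on that side, whether or not the other side held one. On the left and on the right it was a median of 191 and 213.5 bp away in the lowest class. The medians were 363.5 and 384 bp in the middle class, and 466 and 484 bp in the tallest. The distances were alike to the left and to the right in each class.

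**Figure D2:**
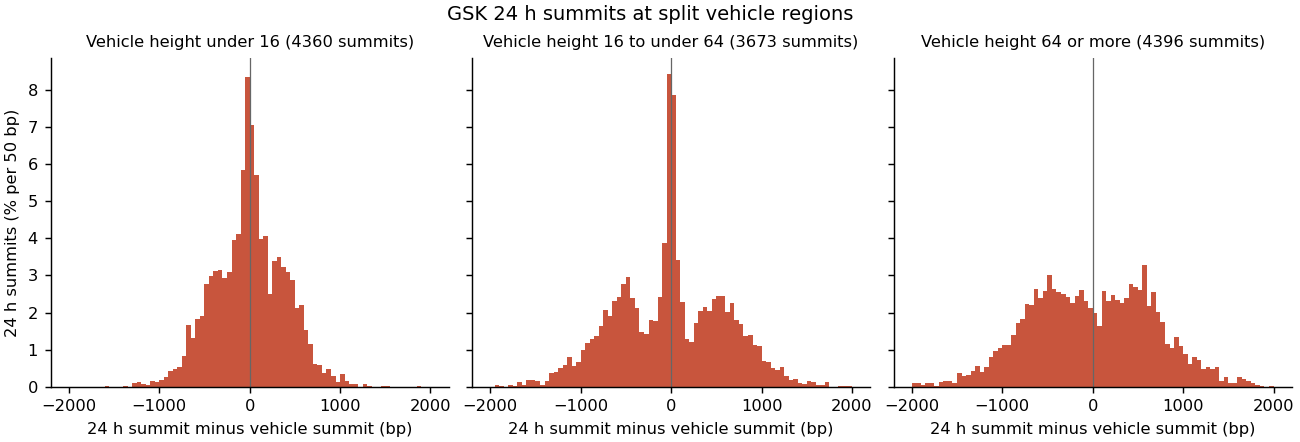
Positions of 24 h summits relative to the vehicle summit (horizontal axis, bp) at split regions of 3 height classes, as a percentage of the 24 h summits of the class per 50 bp (vertical axis). The classes under 16 and from 16 to under 64 have a central peak, which the class of 64 or more lacks.

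The gaps followed the same order, as did the median widths of the vehicle regions (705, 1376 and 1554 bp). A gap cannot be wider than its region, and neither gaps nor summit distances were compared at like widths. The median gap between neighbouring 24 h records was 97.5 bp in the lowest class, 166.5 bp in the middle class and 232 bp in the tallest. Neighbouring 24 h summits were medians of 504.5, 820 and 986 bp apart. Where the gap held the vehicle summit, it was wider, with medians of 134 bp (327 regions), 394 bp (372) and 416 bp (508). The 24 h records of low regions were also weaker calls. All 24 h records reached a -log10 q of 10 at 121 of the low regions (5.59%), 914 of the middle class (50.7%) and 1471 of the tallest (69.4%). Most breaks in low regions therefore rested on at least 1 record with a -log10 q under 10.

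Members just inside and just outside the rule were close to each other. At 550 split regions (9.04%) the second-longest overlap was under 50 bp, and 884 unsplit regions (1.14%) had another 24 h record starting within 50 bp. The members nearest the limit, with a second overlap of 1 bp, lay on chromosome 1 from 53018362 to 53019793 (vehicle height 95.5), on chromosome 2 from 85764781 to 85766831 (53.7) and on chromosome 6 from 134372913 to 134374073 (22.1). The nearest regions outside the rule, with another 24 h record 1 bp away, lay on chromosome 16 from 70472059 to 70473153 (108), on chromosome 11 from 60149914 to 60150497 (10.6) and on chromosome 1 from 175976891 to 175977418 (9.12). At 947 split regions (15.6%) a 24 h record also overlapped another vehicle region.

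The split share has to be read against the other pairs of lists, since any list divides some regions of another. By the same rule, GSK 24 h records split 6.26% of vehicle regions, while vehicle records split 4.65% of GSK 24 h regions (5735 of 123292). GSK 4 h records split 6.97% of vehicle regions (6773), and vehicle records split 4.31% of GSK 4 h regions. Between the GSK lists, 24 h records split 5.05% of the 4 h regions and 4 h records split 6.2% of the 24 h regions. The share of vehicle regions split at 24 h thus lay within the range of the other 5 pairs. It was above the share of the opposite direction, and the distance depended on the setting. With a -log10 q of 10 or more the shares were 5.802% of vehicle regions and 1.81% of GSK 24 h regions, whereas with each list cut to the same number of top records the order turned round, to 4.91% and 5.77%.

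Shares differed more between widths than between pairs of lists. GSK 24 h records split 1.12% of vehicle regions under 500 bp, 5.30% of those from 500 to under 1000 bp and 18.3% (17.6 to 19.1) of those from 1000 to under 1500 bp. In the opposite direction the shares at these widths were 0.427%, 5.20% and 17.8% (17.1 to 18.4). From 1500 to under 2000 bp, 52.1% (50.2 to 53.9) of 2838 vehicle regions were split at 24 h, against 27.4% (25.6 to 29.2) of 2368 GSK 24 h regions by vehicle records. At 2000 bp or more the shares were 75.5% (71.8 to 78.8) of 587 vehicle regions and 32.5% (28.0 to 37.3) of 391 GSK 24 h regions. At these widths the share of vehicle regions was the higher one. It stayed so under each of the 6 alternative settings, looked at by width after the data were seen: with lists of the same length the shares were 50.7% against 27.4% from 1500 to under 2000 bp, and 74.8% against 32.5% at 2000 bp or more. The intervals count regions within 1 pooled list per group, so that this is no test between conditions. The share of vehicle regions split by 4 h records was 45.1% and 66.8% in these widest classes, and both comparisons share the vehicle list. Between the GSK lists, 24 h records split 34.1% and 60% of the 4 h regions of these widths. In the opposite direction, 4 h records split 26.0% and 31.5% of the 24 h regions. A higher share in 1 direction at these widths was therefore not limited to comparisons with vehicle.

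**Figure D3:**
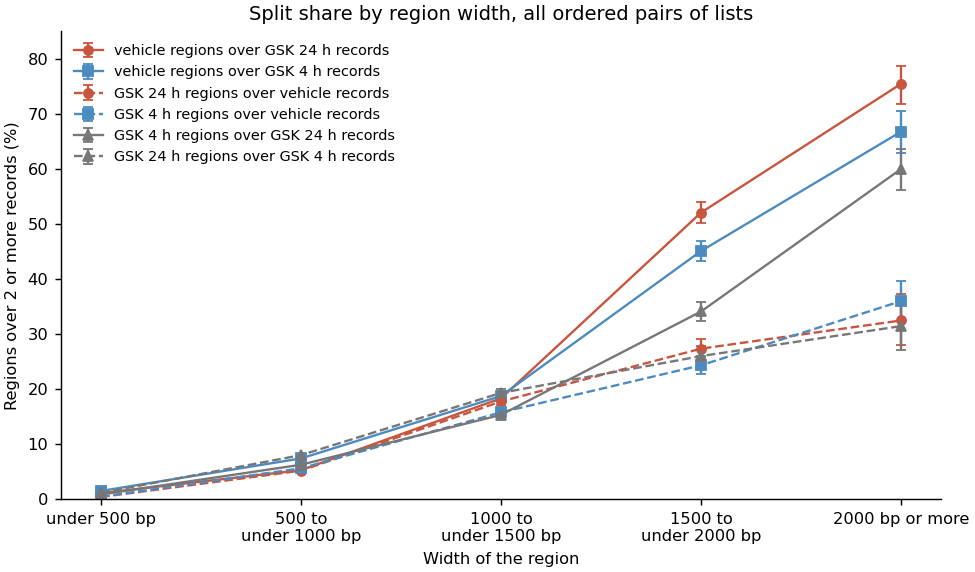
Share of regions overlapped by 2 or more records of another list (vertical axis, %) by width of the region (horizontal axis) for the 6 ordered pairs of lists; error bars are 95% Wilson intervals. Vehicle regions of 1500 bp or more reach 52.1% and 75.5% over GSK 24 h records, against 27.4% and 32.5% in the opposite direction.

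Vehicle height went along with splitting as well. Of vehicle regions with a height under 16, 3.32% were split at 24 h, against 7.17% from 16 to under 64 and 30.5% (29.4 to 31.6) at 64 or more. Tall regions are also wider. From 1000 to under 1500 bp the shares were 17.0%, 13.3% and 28.1% in these classes, with median widths of 1109, 1172 and 1230 bp, and from 1500 to under 2000 bp they were 39.5%, 45.2% and 58.2%. From 500 to under 1000 bp the lowest and the tallest class were alike, at 6.75% and 6.74%. Tall regions thus had the highest share at widths from 1000 to under 2000 bp but not at smaller ones, and width still differed between the classes. Summits of the overlapping records stood on both sides of the region's own summit at 65.3% of the GSK 24 h regions split by vehicle records, at 74.1% of the vehicle regions split by 4 h records and at 77.9% of the vehicle regions split at 24 h. The region's summit lay outside every overlapping record at 8.93%, 12.3% and 20.6% of these regions, and the median gaps were 130, 136 and 154 bp.

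Summit heights were lower at 24 h than in vehicle at nearly all tall split regions, but not at most low ones. At split regions with a vehicle height of 64 or more, the median height was 110.8 in vehicle, 52.6 at 4 h and 37.1 at 24 h, taking the tallest overlapping record. In the middle class the medians were 33.1, 35.1 and 28.5, and in the lowest class 9.60, 12.75 and 11.19. The median of the 24 h to vehicle height ratio was 0.329, 0.946 and 1.19 from the tallest class to the lowest, and 0.840 over all split regions (interquartile range 0.395 to 1.17). The overall ratio was 0.471 with records limited to a -log10 q of 10 or more. The tallest 24 h summit was higher than the vehicle summit at 2326 split regions (38.2%). A break at 24 h was therefore not always accompanied by a lower summit.

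Lower 24 h heights were about as common at tall unsplit regions. Among unsplit regions with a vehicle height of 64 or more, the medians were 114 in vehicle, 52.6 at 4 h and 34.6 at 24 h, with a median 24 h to vehicle ratio of 0.295. A lower 24 h height was found at 99.7% of the split and 97.6% of the unsplit regions of this class. In the other classes the ratios of unsplit regions were 1.06 and 1.25, slightly above those of split regions. Since the classes were set by the vehicle height itself, their ratios to vehicle are a description of these lists. Over all unsplit regions the median ratio was 1.15, against 0.840 over split regions, which held more tall regions (2120 of 6087, against 4594 of 77635).

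**Figure D4:**
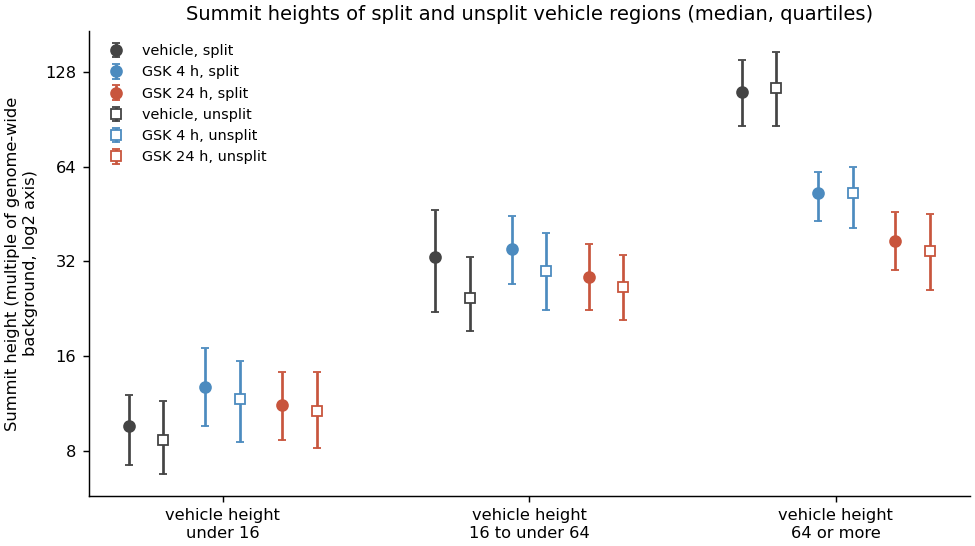
Summit heights (vertical axis, multiple of the genome-wide background on a log2 axis) of split regions (filled circles) and unsplit regions (open squares) in the 3 lists, by class of vehicle height (horizontal axis); points are medians and bars are quartiles over regions. In the tallest class the medians of split and unsplit regions are 110.8 and 114 in vehicle and 37.1 and 34.6 at 24 h.

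The 4 h list was not used to choose the members and was followed at the same places. At 4 h, 2603 of the 6087 split regions (42.8%, 41.5 to 44.01) overlapped 2 or more records, 3365 (55.3%) overlapped 1 and 119 overlapped none. Over all vehicle regions the share split at 4 h was 6.97%, and over unsplit regions it was 5.13%. The 2603 regions were 38.4% of all vehicle regions split at 4 h. Both comparisons use the same vehicle list, so a vehicle record that was joined across a dip enters both, and they are not independent.

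The difference was also seen within classes of width and height. From 1500 to under 2000 bp, 69.0% of the regions split at 24 h were also split at 4 h, against 19.0% of the unsplit regions. At 2000 bp or more the shares were 81.5% and 21.5%, and under 500 bp they were 3.49% and 1.70%. By height the share split at 4 h was 18.02% in the lowest class, 51.6% in the middle class and 60.5% in the tallest, against 4.63%, 5.84% and 7.25% of unsplit regions. Among regions of 1000 bp or more with a height of 64 or more, 62.4% of split and 10.1% of unsplit regions were split at 4 h. At this width the shares were 58.9% and 13.0% in the middle class. They were much closer in the lowest class, at 36.0% and 23.4%.

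Where a region was split at both times, the gap was usually at a flank at 4 h. Summits at 4 h lay on both sides of the vehicle summit at 2063 of the 2603 regions (79.3%, 77.7 to 80.8), but the vehicle summit was outside every 4 h record at only 226 (8.68%, 7.66 to 9.83). In the tallest class the vehicle summit was outside every 4 h record at 3.98% (3.04 to 5.19) of the 1283 regions split at both times. It was outside every 24 h record at 24.7% of all 2120 split regions of this class. These 2 shares are over different sets of regions, so they do not measure a change from 4 h to 24 h. The median gap at 4 h was 175 bp at the regions split at both times.

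The 6355 gaps of the 24 h list were also read directly in the 4 h list. A single 4 h record bridged 3296 of them (51.9%, 50.6 to 53.1), 2481 were covered in part and 578 (9.10%) were free of any 4 h record. The bridged share was 62.8% in low regions, 49.0% in the middle class and 43.6% (41.6 to 45.7) in tall regions. The share free of any 4 h record was 17.4%, 7.37% and 2.49% in the same order. Most of the 24 h gaps of tall regions were therefore covered at 4 h only in part or not at all, and most of those of low regions were bridged.

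Averaged around the vehicle summit, the records show the same order. At tall split regions, 97.2% of summits were covered by a 4 h record and 75.3% by a 24 h record. At 200 bp to the left and right, the 4 h records covered 83.4% and 83.7% and the 24 h records 65.4% and 65.5%, and at 500 bp the 24 h records covered 71.1% and 71.0%. The 24 h coverage thus dipped on each side of the summit and recovered farther out, which the rule itself favours. At 1000 bp the 24 h records covered 46.0% and 45.0% and the vehicle records 30.8% and 30.1%, so that both GSK lists reached farther out than the vehicle list (4 h records covered 45.0% and 44.8%). At tall unsplit regions of 1000 bp or more, 88.4% of vehicle summits were covered at 24 h and 97.9% at 4 h. Loss of coverage over the former summit was thus found at some unsplit regions too, where the single 24 h record lay to 1 side. At low split regions, the vehicle summit was covered by a 24 h record at 84.0% and by a 4 h record at 83.6%.

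**Figure D5:**
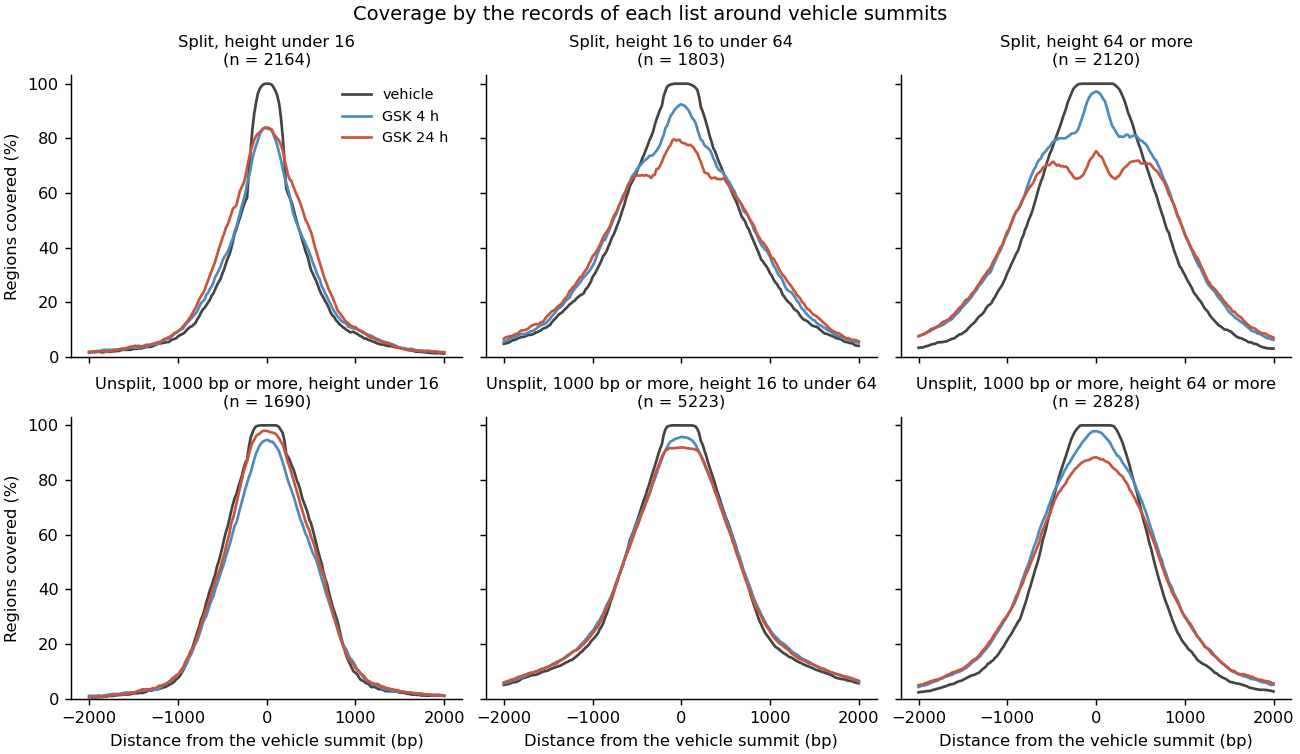
Share of regions covered by a record of each list (vertical axis, %) by distance from the vehicle summit (horizontal axis, bp) at split regions (upper row) and at unsplit regions of 1000 bp or more (lower row), in 3 classes of vehicle height. At tall split regions, coverage at the summit is 97.2% at 4 h and 75.3% at 24 h.

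Split regions were found on each of chromosomes 1 to 22. The share of vehicle regions that were split was lowest on chromosome 18 (5.24%) and highest on chromosome 22 (8.35%). Among regions with a vehicle height of 64 or more it ran from 25.2% on chromosome 4 to 39.1% on chromosome 13. Which genes lie at the split regions was not analysed here, for want of an hg19 annotation.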

How the data were processed

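H3K4me2 ChIP-seq was done in LNCaP cells (ThruPLEX libraries). Per the submitters' processing notes, hg19, BWA 0.7.2-r351, SAMtools 0.1.18 and MACS2 2.0.10.20131216 were used; the peak calling settings and any input control are not given in the sources used here. The authors deposited 3 narrowPeak lists (101165 vehicle, 129776 GSK 4 h and 128552 GSK 24 h records), each pooled from 2 replicates. Beside positions and summits, the deposited values are the caller's fold over background (a ratio), p-values and q-values as -log10, and a display score, which was not used. The lowest -log10 q-value was 1.32, 1.34 and 1.34.

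Records on chromosomes 1 to 22 were compared by an overlap of at least 1 bp with Python 3.11.15, numpy 2.4.6, pandas 2.3.3 and scipy 1.17.1, and figures were drawn with matplotlib 3.10.9. A whole-number fragment pileup at each summit was recovered from the fold, taken as (pileup + 1)/(background + 1), and the Poisson p-value. The recovered number was whole, to a tolerance of 0.001 in -log10 p, for 99.998% of vehicle records and 100% of both GSK lists, and heights are this pileup over the genome-wide background. The median pileup was 23, 21 and 21 fragments, which limits the precision of weak records. Wilson 95% intervals cover counting error only. Both steps were tested on simulated data. Where several records overlapped a region, the tallest gave its height.

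The named regions were the 5 strongest by vehicle -log10 p with exactly 2 records at 24 h around the vehicle summit, 3 with the most 24 h records (ties taken by vehicle -log10 p), the 3 strongest with the vehicle summit inside a 24 h record, the 3 strongest of the first kind with several and the 3 with exactly 1 record at 4 h, and 3 regions at each side of the rule's limit. The members, classes and named regions were chosen with earlier results of these data known. Alternatives were a -log10 q of at least 5 or 10, 50% of the record inside the region, records within 200 bp merged, lists of equal length and all sequences. Shares by width under these alternatives, and by height within widths, were added after the data were seen. Genes and base sequences were not analysed here, since no genome of this build was used.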

Additional observations from a re-analysis of the deposited data

Results flagged for a closer look

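Sequences outside chromosomes 1 to 22, which the comparisons above leave out, also held vehicle regions that overlapped several GSK 24 h records, above the limit of 3 that a count of 0 allows. With this many regions a share like that of chromosomes 1 to 22 passes that limit by itself, so the counts are given as values only. On chromosomes X and Y there were 191 such regions among 2757 vehicle regions (6.93%, 95% Wilson interval 6.04 to 7.94). Vehicle records split 3.36% of the GSK 24 h regions there, and 6.64% of the vehicle regions were split at 4 h. On haplotype, unplaced and mitochondrial sequences, 34 of 1168 vehicle regions (2.91%, 2.09 to 4.04) were split at 24 h and 71 (6.08%) at 4 h. The difference between these shares and that of chromosomes 1 to 22 was not tested between conditions, as each group has 1 pooled list.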

How the results depend on the processing

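No paired analysis was possible because both replicates are pooled in each list, and leaving out a replicate was not possible for the same reason. Values are given in 1 order: the number of split regions, their share of vehicle regions, the share of GSK 24 h regions split by vehicle records, the share of split regions also split at 4 h, the share with 24 h summits on both sides, the share with the vehicle summit outside every 24 h record, the median gap and the median 24 h to vehicle height ratio. As reported they were 6087, 6.26%, 4.65%, 42.8%, 77.9%, 20.6%, 154 bp and 0.840. With -log10 q limited to 5 or more they were 4351, 5.63%, 3.66%, 50.6%, 78.6%, 20.7%, 181 bp and 0.639. With 10 or more they were 2573, 5.802%, 1.81%, 59.1%, 83.1%, 23.4%, 229 bp and 0.471. With 50% of a record inside the region they were 3981, 4.09%, 3.34%, 44.9%, 76.3%, 17.9%, 161 bp and 0.733. With records within 200 bp merged they were 3636, 4.08%, 2.83%, 44.6%, 79.8%, 29.0%, 329 bp and 0.643. With lists of the same length they were 4779, 4.91%, 5.77%, 47.8%, 78.4%, 20.5%, 173 bp and 0.707. With all sequences each moved by less than its counting interval or, for counts, 1.5 times. Merging closes the narrow gaps by construction. The cause of the other changes was not tested. Of 108 record numbers at the 18 named regions under these 6 settings, 18 changed whether the region met the rule. Shares by width, added after the data were seen, kept the order reported for regions of 1500 bp or more under all 6 settings.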
